A study of Mus musculus with 10 samples.

Results

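The 10 genes described here are 5 WNT ligands, Wnt2, Wnt3, Wnt3a, Wnt5a and Wnt5b, and 5 genes known to respond to WNT signaling, Axin2, Lef1, Sp5, Sp8 and Dkk1. They were chosen by name, were found by gene symbol among the 55487 genes of the count tables, and all 10 are among the 22596 genes that passed the filter on low counts. The data are nuclear RNA-seq of a mouse embryonic stem cell line, HM-1, kept in LIF and serum (ES), and of 4 populations obtained from it by differentiation in serum toward blood. FLK1+ hemangioblast cells (HB) were isolated from embryoid bodies. After further blast culture, the first hemogenic endothelium (HE1) was sorted as KIT+ TIE2+ CD41-, the second (HE2) as KIT+ TIE2+ CD41+ and hematopoietic progenitors (HP) as KIT+ TIE2- CD41+. There are 2 libraries for each stage and 10 in all, each from this 1 cell line. The study calls its expression replicates biologically independent, whereas the labels give a replicate number alone, and the p-values measure the spread between replicates of 1 line. The study measured expression in order to relate the activity of enhancers at one stage to the genes expressed at the next.

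WNT proteins are secreted, lipid-modified ligands that bind Frizzled receptors with LRP5 or LRP6. In the canonical branch this stops the destruction complex of AXIN, APC and GSK3 from degrading beta-catenin, which then acts with TCF and LEF proteins on target genes. WNT3 and WNT3A are known as canonical ligands of the primitive streak, from which mesoderm arises in the embryo, WNT5A and WNT5B act mostly through branches without beta-catenin, and WNT2 is known from the developing heart, lung and vessels. Among the targets, Axin2 encodes a member of the destruction complex and so a feedback inhibitor, Lef1 encodes one of the TCF/LEF factors, Sp5 and Sp8 encode zinc finger factors that act with them, and Dkk1 encodes a secreted antagonist that binds LRP5 and LRP6.

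On mm10, the ligands lie on 3 chromosomes, namely Wnt2 at chr6:17988940-18030585 and Wnt5b at chr6:119432531-119544347 (both on the minus strand), Wnt3 at chr11:103774150-103817957 (plus), Wnt3a at chr11:59248033-59290752 (minus) and Wnt5a at chr14:28504750-28527448 (plus). The targets lie at chr11:108920349-108950783 (Axin2, plus), chr3:131110471-131224356 (Lef1, plus), chr2:70474923-70477729 (Sp5, plus), chr12:118846329-118852576 (Sp8, plus) and chr19:30545863-30549665 (Dkk1, minus). Wnt3 and Wnt3a each have another ligand gene as a near neighbor, with Wnt9b 24.3 kb from Wnt3 and Wnt9a 16.2 kb from Wnt3a.

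Promoter sequences are shown for Sp5 and Dkk1, because each of their windows holds more than 1 TCF/LEF core motif, and for Axin2, the most general of the targets, whose window holds none. A window of 250 bases before the RefSeq gene start (GRCm38.p6, the build of the count tables) was searched on both strands for CTTTGAA and the motif CTTTGAT, and likewise for CTTTGTA or the motif CTTTGTT. RefSeq promoters were matched for 9 of the 10 genes, with 16 windows, since some genes have several starts. Capitals mark the motifs, and each sequence is written 5′ to 3′ on the strand of its gene.
Sp5, chr2:70474673-70474922, plus strand: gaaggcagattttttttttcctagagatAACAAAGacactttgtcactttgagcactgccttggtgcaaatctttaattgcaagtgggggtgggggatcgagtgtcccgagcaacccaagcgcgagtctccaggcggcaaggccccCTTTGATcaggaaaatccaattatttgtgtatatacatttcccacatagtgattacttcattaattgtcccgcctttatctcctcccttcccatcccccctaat
Dkk1, chr19:30549497-30549746, minus strand: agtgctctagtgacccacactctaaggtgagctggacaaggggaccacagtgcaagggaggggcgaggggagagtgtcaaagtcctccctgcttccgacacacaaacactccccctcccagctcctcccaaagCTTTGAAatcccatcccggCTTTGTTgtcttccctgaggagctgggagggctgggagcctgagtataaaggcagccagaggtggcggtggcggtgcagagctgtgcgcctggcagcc
Axin2, chr11:108920099-108920348, plus strand: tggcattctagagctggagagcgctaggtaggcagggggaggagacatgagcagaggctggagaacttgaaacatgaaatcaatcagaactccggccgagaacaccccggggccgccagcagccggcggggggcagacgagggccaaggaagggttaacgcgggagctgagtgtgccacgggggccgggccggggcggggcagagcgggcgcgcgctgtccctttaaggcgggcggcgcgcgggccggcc
In the Sp5 window one match began 222 bases before the gene start on the opposite strand, and the other, CTTTGAT, began 104 bases before it on the strand of the gene. In the Dkk1 window CTTTGAA and CTTTGTT began 117 and 98 bases before the start, both on the strand of the gene. Of the 16 windows, 5 held a match, with 1 each at alternative starts of Wnt5b, Lef1 and Sp8. Of all 32851 RefSeq windows of this length 14.8% held at least 1 match, and 1.43% held 2 or more. A match is a description of the sequence and not evidence of binding.

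Library sizes lay between 24920434 and 58782055 counts on genes, and the replicate libraries correlated with r of 0.967 (HE1) to 0.994 (ES) across tested genes on the log2 CPM scale. The labels were checked with the genes of the sorted surface proteins. Kdr, which encodes FLK1, was at 2.43 and 2.69 CPM in ES and at 956 and 1284 CPM in HB. Itga2b, which encodes CD41, was at 227 and 127 CPM in HE1 against 505 and 469 CPM in HE2, so that its RNA was detected in the CD41- population too. Tek, which encodes TIE2, was at 285 and 159 CPM in HE2 and 61.5 and 64.1 CPM in HP. The 2 HE1 libraries differed from each other more than those of other stages. The summed level of 4 pluripotency markers, all above the floor, was 5.21 CPM in HE1 replicate 1 and 58.2 CPM in replicate 2, against 1.87 to 2.56 CPM in HE2 and 68.4 to 90.9 CPM in HB. The summed level of 4 fibroblast and mesenchyme markers, also all above the floor, was 385 and 874 CPM in the HE1 libraries, and that of 5 endothelial markers 2972 and 1773 CPM. In bulk samples, fewer cells of a type and less RNA per cell cannot be told apart.

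Most of the WNT ligand and target genes rose from ES to HB. Of the 10 genes, 9 were called higher in HB, which requires at least a 2-fold change with an adjusted p below 0.05, whereas 11.5% of all tested genes were called higher. The median log2 fold change of the 10 genes was 4.17, against 0 for all tested genes. The gene that was not called was Wnt3a. Over the same step the summed FLK1+ mesoderm markers went from 6.93 and 7.28 CPM to 1384 and 1764 CPM, the pluripotency markers from 1598 and 1533 CPM to 90.9 and 68.4 CPM, the endoderm markers from 0.425 and 0.602 CPM to 18.5 and 13.8 CPM and the neural markers from 50.9 and 49.9 CPM to 2.02 and 1.35 CPM. Their part in the rise was not tested. Adjusted p-values here and below come from the quasi-likelihood test of edgeR and were adjusted over all tested genes (Benjamini-Hochberg), and ± is the standard error of a log2 fold change. Lef1, Sp5 and Sp8 are on the study's list of genes linked to enhancers that were primed in ES cells, which was chosen for low expression in ES and activation in HB in these libraries, so their rise is not independent of that choice.

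Among the ligands, Wnt3 was at 10.0 and 10.2 CPM in ES and at 101 and 116 CPM in HB, a log2 fold change of 3.42 ± 0.37 (adjusted p = 5.32e-05). Wnt5a rose from 3.62 and 3.53 CPM to 129 and 148 CPM, or by 5.28 ± 0.46 (adjusted p = 1.44e-05). Wnt5b was at 2.68 and 2.61 CPM in ES and at 19.1 CPM in both HB libraries (2.85 ± 0.32, adjusted p = 7.59e-05). For all of these the HB libraries lay far above the ES libraries and the replicates lay close together. Wnt2 started from almost nothing, with 0 and 6 counts in the ES libraries (0 and 0.172 CPM), and reached 12.2 and 15.4 CPM in HB (7.57 ± 0.87, adjusted p = 7.79e-05). The size of this change rests on the ES library kept, with 6.31 without ES replicate 1 and 11.94 without ES replicate 2, and it was called in both cases. Wnt3a did not share the rise. It was at 0.656 and 1.00 CPM in ES and at 0.727 and 0.169 CPM in HB, and the groups overlapped (-0.89 ± 1.20, adjusted p = 0.598).

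Each of the 5 targets was called higher. Dkk1 was at 0.337 and 0.516 CPM in ES and at 44.8 and 58.7 CPM in HB, a log2 fold change of 6.95 ± 0.38 (adjusted p = 1.02e-06). Lef1 was at 3.69 and 3.87 CPM in ES and at 85.6 and 94.1 CPM in HB (4.57 ± 0.69, adjusted p = 0.000477). The pair of SP factors moved by similar amounts. Sp8 went from 0.798 and 0.803 CPM to 17.3 and 15.9 CPM (4.37 ± 0.62, adjusted p = 0.00031), and Sp5 from 3.76 and 3.73 CPM to 63.6 and 53.6 CPM (3.97 ± 0.43, adjusted p = 5.25e-05). Axin2, the feedback inhibitor, was already at 19.6 and 19.0 CPM in ES and reached 127 and 130 CPM in HB (2.74 ± 0.29, adjusted p = 4.56e-05). In each target both HB libraries lay above both ES libraries, as they did for 37.7% of all tested genes. The 9 calls were made under each of the 18 alternative settings, leaving out each library included.

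**Figure D1:**
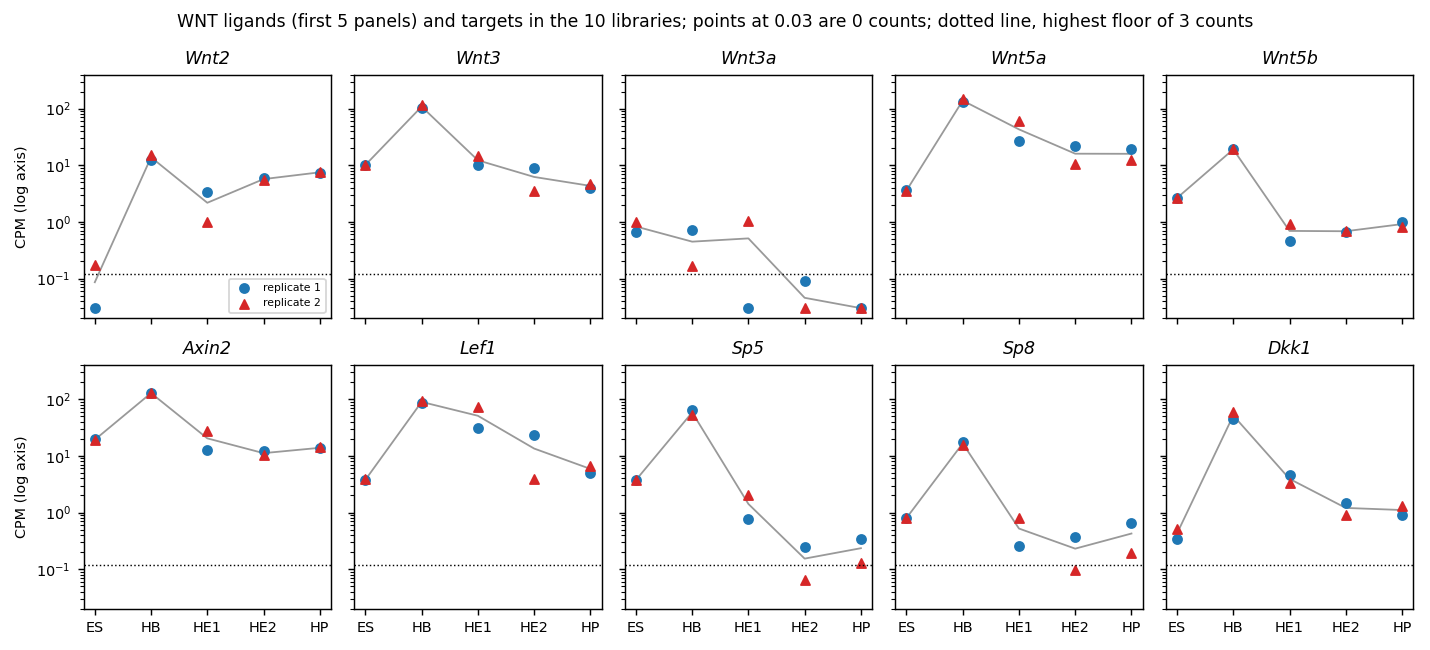
Expression of the 10 genes in each library, in CPM on a log axis, by stage; circles are replicate 1, triangles replicate 2, lines join the stage means, points at the bottom are libraries with 0 counts and the dotted line is the highest floor of 3 counts. All genes but Wnt3a are highest in HB, Wnt2 is lower in HE1 than in HB with higher values in HE2 and HP that were not called as a change, and the HE1 and HE2 libraries of Lef1 lie far apart.

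Per kilobase of exon, the scale on which levels of different genes can be set side by side, Wnt3 was the most abundant of the 10 genes in HB at 35.3 ± 3.62 RPKM (mean ± SD, n = 2). It was followed by Sp5 at 27.9 ± 3.38, Axin2 at 23.4 ± 0.389, Dkk1 at 21.3 ± 4.04 and Wnt5a at 17.7 ± 1.68 RPKM. Lef1 was at 10.2 ± 0.688, Wnt5b at 7.19 ± 0.00209, Wnt2 at 6.13 ± 1.00 and Sp8 at 3.65 ± 0.228 RPKM, and Wnt3a at 0.162 ± 0.143 RPKM. In ES the only genes of the 10 above 1 RPKM were Axin2 at 3.50 ± 0.0745, Wnt3 at 3.29 ± 0.0332 and Sp5 at 1.78 ± 0.0104 RPKM.

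The ligands that made up most of the WNT ligand RNA were not the same at each stage. Summed over the 19 WNT ligand genes, the ligand level was 16.6 and 17.8 RPKM in ES and 71.3 and 78.8 RPKM in HB. The 5 ligands Wnt2, Wnt3, Wnt3a, Wnt5a and Wnt5b made up 30.0% and 29.1% of this sum in ES and 87.1% and 90.0% in HB. Wnt3 alone took 45.9% and 48.0% of it in HB and Wnt5a 23.2% and 24.0%. In ES, Wnt3 also came first with 19.7% and 18.6%, next to Wnt7b and Wnt6. From HE1 on, Wnt4 was the most abundant ligand in each library, with 29.0% to 40.9% of the sum, and the sum was back at 10.9 to 32.3 RPKM. In both HP libraries and in HE2 replicate 2 the second place belonged to Wnt2, with 20.7% to 26.2%, whereas in HE1 it belonged to Wnt5a.

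**Figure D2:**
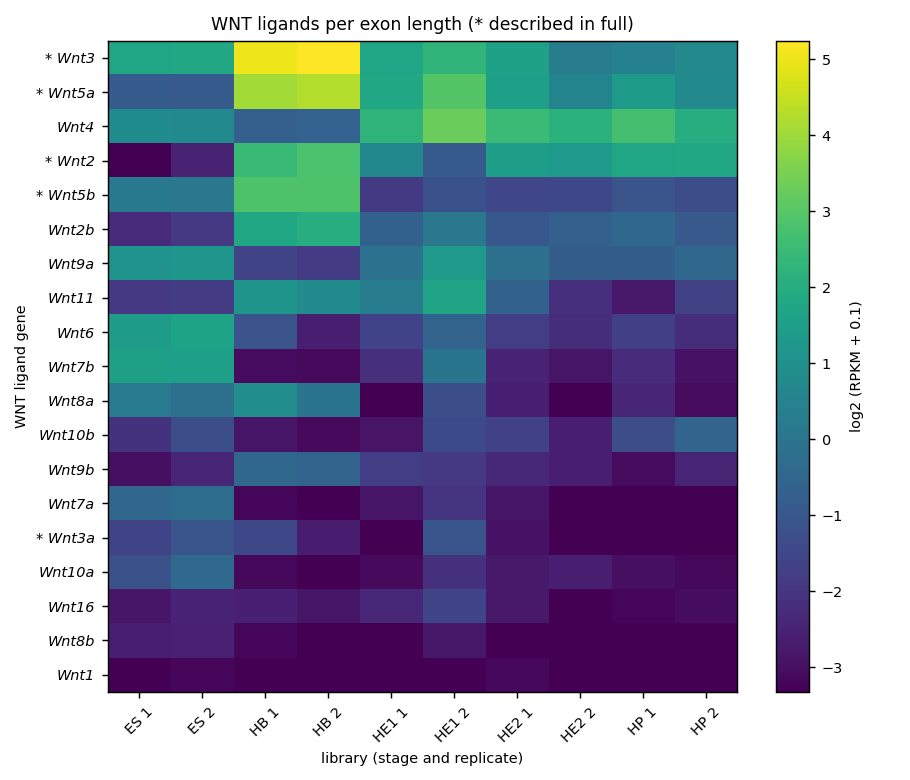
Level of the 19 WNT ligand genes in each library as log2(RPKM + 0.1), with genes in rows ordered by their summed level and libraries in columns. Wnt3, Wnt5a, Wnt2 and Wnt5b are bright in both HB libraries, Wnt7b and Wnt6 are brightest in ES, and Wnt4 from HE1 to HP.

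The rise was followed by a fall in HE1. Of the 10 genes, 8 were called lower in HE1 than in HB, against 8.19% of all tested genes called lower, and the median log2 fold change was -2.91, against 0.04 for all tested genes. Over the same step the summed cardiac and smooth muscle markers went from 18.8 and 12.9 CPM in HB to 634 and 998 in HE1. The fibroblast and mesenchyme markers went from 66.5 and 67.1 CPM to 385 and 874 CPM. Endothelial markers went from 245 and 219 CPM to 2972 and 1773 CPM and 6 hematopoietic markers from 201 and 197 to 434 and 264. The endoderm markers went from 18.5 and 13.8 CPM to 99.2 and 78.1 CPM. Neural markers went from 2.02 and 1.35 CPM to 29.8 and 76.1 CPM. The pluripotency markers fell from 90.9 and 68.4 CPM to 5.21 and 58.2 CPM. FLK1+ mesoderm markers went from 1384 and 1764 CPM to 1333 and 814 CPM. Of these, Etv2, Pdgfra and Mesp1 were called lower, and Kdr and Hand1 were not called. The part of these lists in the fall was not tested. Among the 10 genes the largest falls were those of the SP factors and of Wnt5b. Sp5 was at 0.757 and 2.08 CPM in HE1, which is a log2 fold change of -5.33 ± 0.47 from HB (adjusted p = 3.58e-05) and also below its ES level (-1.37 ± 0.43, adjusted p = 0.0207). That last call was lost without HE1 replicate 1 (adjusted p = 0.0978), without either ES library, with total counts in place of TMM and with only the 4 libraries of ES and HE1. Sp8 was at 0.252 and 0.792 CPM (-4.94 ± 0.65, adjusted p = 0.000403). Wnt5b was at 0.462 and 0.924 CPM (-4.75 ± 0.37, adjusted p = 1.83e-05) and, like Sp5, lay below both ES libraries (-1.90 ± 0.35, adjusted p = 0.00113).

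Dkk1 fell to 4.54 and 3.33 CPM (-3.72 ± 0.32, adjusted p = 3.18e-05) but was still higher than in ES (3.23 ± 0.36, adjusted p = 4.21e-05). In Wnt3 and Axin2 the HE1 libraries overlapped with those of ES. Wnt3 was at 9.92 and 14.6 CPM (-3.14 ± 0.37 from HB, adjusted p = 0.000185) and in ES at 10.0 and 10.2 CPM. Axin2 was at 12.9 and 27.9 CPM (-2.65 ± 0.29, adjusted p = 0.000126), on either side of its ES level. Wnt2 was at 3.36 and 0.990 CPM (-2.68 ± 0.62, adjusted p = 0.00851).

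In Wnt5a and Lef1 the mean level in HE1 was 0.311 and 0.570 times that in HB. Wnt5a was at 26.6 and 59.5 CPM in HE1 (-1.68 ± 0.39, adjusted p = 0.00865), which was still above ES (3.59 ± 0.43, adjusted p = 7.29e-05). Lef1 was at 30.6 and 71.7 CPM, below both HB libraries, but the difference was not called (-0.81 ± 0.59, adjusted p = 0.316). It was called higher than in ES (3.76 ± 0.67, adjusted p = 0.000931). Wnt3a was at 0 counts in HE1 replicate 1 and at 31 counts or 1.02 CPM in replicate 2, and was not called (adjusted p = 0.897). The 8 calls became 6 without HB replicate 2, where Wnt2 and Wnt5a were no longer called.

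**Figure D3:**
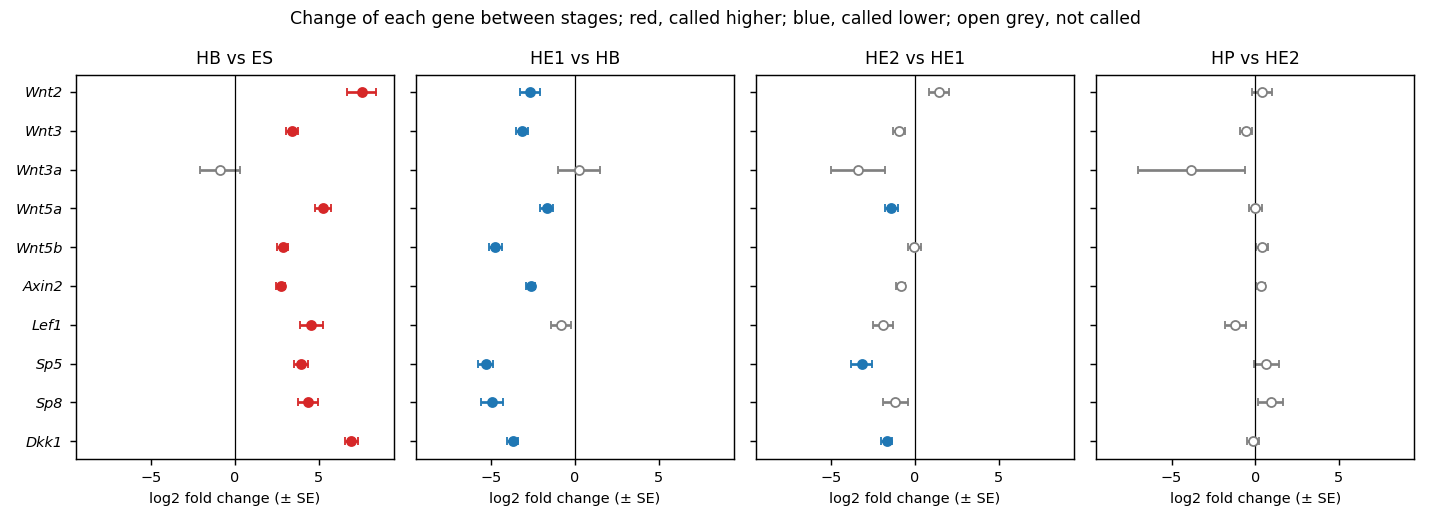
Log2 fold change of each gene in 4 comparisons of successive stages, with bars of 1 standard error; filled red points are called higher, filled blue points lower and open points not called. HB vs ES has 9 red points, HE1 vs HB 8 blue ones, HE2 vs HE1 3 blue ones and HP vs HE2 none.

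The HE1 and HE2 libraries differed within their stage in most of these genes. HE1 replicate 2 was higher than replicate 1 by 2.34 times for Lef1, 2.24 times for Wnt5a, 2.15 times for Axin2, 2.75 times for Sp5 and 3.14 times for Sp8. For Wnt2 it was the other way around, and replicate 1 was 3.40 times higher. Between the HE1 libraries 21.3% of all tested genes differed by over 2-fold, and the higher pluripotency and mesenchyme sums of replicate 2 given above go with the same library. Their part in these values was not tested. In HE2, replicate 1 was higher by 5.80 times for Lef1, 3.84 times for both Sp5 and Sp8, which had few counts, 2.60 times for Wnt3 and 2.05 times for Wnt5a, and 15.5% of all tested genes differed by over 2-fold. The summed cardiac and smooth muscle markers, 5 of 5 above the floor, were at 648 and 402 CPM in these 2 libraries. The summed endothelial markers were at 1827 and 1047 CPM and the summed endoderm markers, 3 of 4 above the floor, at 32.0 and 9.01 CPM. The summed hematopoietic markers went the other way, at 1090 and 1521 CPM. Their part was not tested either.

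From HE1 to HE2, 3 of the 10 genes were called lower, against 5.39% of all tested genes called lower. Between these stages the summed 6 hematopoietic markers went from 434 and 264 CPM to 1090 and 1521 CPM. The endoderm markers went from 99.2 and 78.1 CPM to 32.0 and 9.01 CPM. The endothelial markers went from 2972 and 1773 CPM to 1827 and 1047 CPM. The 4 pluripotency markers went from 5.21 and 58.2 CPM to 2.56 and 1.87 CPM, and each was called lower. The cardiac and mesenchyme sums of the 2 stages overlapped. The part of these lists in the fall was not tested. Sp5 was at 0.244 and 0.0635 CPM in HE2, with 8 and 2 counts (-3.19 ± 0.62, adjusted p = 0.0141). Dkk1 was at 1.49 and 0.920 CPM (-1.70 ± 0.33, adjusted p = 0.0132) and Wnt5a at 21.5 and 10.5 CPM (-1.43 ± 0.39, adjusted p = 0.0405). In these 3 both HE2 libraries lay below both HE1 libraries, as they did for 30.4% of all tested genes. Lef1, at 23.0 and 3.97 CPM in HE2, did not overlap with HE1 but was not called by edgeR (-1.92 ± 0.62, adjusted p = 0.061). It was called lower under limma-voom (-2.30, adjusted p = 0.0331), with no filter on low counts, without HE1 replicate 1 (adjusted p = 0.0353) and without HE2 replicate 1 (adjusted p = 0.00151), and over all refits its log2 fold change lay between -3.69 and -1.15. Also not called were Wnt3 at 8.98 and 3.46 CPM (-0.98 ± 0.35, adjusted p = 0.0843), Axin2 at 12.0 and 10.3 CPM (-0.87 ± 0.28, adjusted p = 0.0616), and Wnt5b at 0.670 and 0.698 CPM (-0.04 ± 0.38, adjusted p = 0.949). With 1 library left out, the change lay between -1.83 and -0.45 for Wnt3 and between -1.32 and -0.21 for Axin2. Sp8 was at 0.365 and 0.0952 CPM and overlapped with HE1 (-1.20 ± 0.74, adjusted p = 0.262). Wnt3a, at 3 and 0 counts, was at or below the floor of 3 counts. The number called lower was 1 without HE1 replicate 2, 6 without HE1 replicate 1, 0 without HE2 replicate 2, 5 without HE2 replicate 1, and 0 when only the 4 libraries of the 2 stages were fitted. Wnt5a lost its call without any 1 of the ES or HB libraries as well, and with a replicate block (adjusted p = 0.0565).

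Wnt2 had differences of the opposite sign. In HE2 it was at 6.0 and 5.40 CPM, above both HE1 libraries (1.41 ± 0.60, adjusted p = 0.127), and in HP at 7.37 and 7.66 CPM, above both HE2 libraries (0.40 ± 0.57, adjusted p = 1). Neither step was called by edgeR, and neither was HP against HE1 (1.80 ± 0.61, adjusted p = 0.052). The step from HE1 to HE2 was called under DESeq2 (adjusted p = 0.0412), with no filter on low counts (adjusted p = 0.00171) and without HE1 replicate 1 (2.52, adjusted p = 0.0273). HP against HE1 was called in 8 of 17 refits, those without HE1 replicate 1, ES replicate 1 or ES replicate 2 among them. Wnt2 in HP was not distinguished from HB either (-0.88 ± 0.57, adjusted p = 0.281), whereas it was above ES (6.69 ± 0.86, adjusted p = 0.000101), by 5.41 without ES replicate 1 and 11.04 without ES replicate 2. No other gene of the 10 had its second highest mean in HP.

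From HE2 to HP none of the 10 genes was called by edgeR, as was the case for all tested genes, of which 0% were called. At an unadjusted p under 0.05 there were 0 of the 10 genes and 7.89% of all tested genes, and 0 of the 10 were called by limma-voom or DESeq2. Axin2 was at 13.7 and 14.1 CPM in HP, Wnt3 at 3.92 and 4.73, Wnt5a at 19.2 and 12.6, and Wnt5b at 1.00 and 0.826 CPM. Lef1 was at 5.06 and 6.74 CPM, within the range of the HE2 libraries, and Dkk1 at 0.912 and 1.30 CPM. Sp5 was at 0.342 and 0.127 CPM, Sp8 at 0.661 and 0.191 CPM, and Wnt3a had 0 counts in both libraries. Against the floor of 3 counts in each HP library, Wnt3a was at least 10.1-fold lower in HP than in ES, a comparison in which it was called lower (adjusted p = 0.0175), though not with either HP library left out (adjusted p = 0.0821 and 0.0639). Without HE2 replicate 2, and also with no filter on low counts, Lef1 was called lower in HP than in HE2.

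Over the whole endothelial to hematopoietic step, from HE1 to HP, 5 of the 10 genes were called lower, against 11.2% of all tested genes called lower. This comparison shares its HE1 libraries with the one between HE1 and HE2. Over the same step the summed endothelial markers went from 2972 and 1773 CPM to 489 and 520 CPM. The endoderm markers went from 99.2 and 78.1 CPM to 2.67 and 8.67 CPM. FLK1+ mesoderm markers went from 1333 and 814 CPM to 379 and 369 CPM. The 4 pluripotency markers, at 5.21 and 58.2 CPM in HE1 and 5.56 and 1.08 CPM in HP, were each called lower. Hematopoietic markers rose from 434 and 264 CPM to 1482 and 1199 CPM. The cardiac and smooth muscle sums (634 and 998, then 751 and 361 CPM) overlapped, as did mesenchyme (385 and 874, then 714 and 376 CPM). The part of these lists in the fall was not tested. The change was -3.12 ± 0.65 for Lef1 (adjusted p = 0.00685), -2.53 ± 0.56 for Sp5 (adjusted p = 0.00906), -1.84 ± 0.33 for Dkk1 (adjusted p = 0.00311), -1.51 ± 0.36 for Wnt3 (adjusted p = 0.0133) and -1.43 ± 0.39 for Wnt5a (adjusted p = 0.0234). Axin2 was not called (-0.56 ± 0.28, adjusted p = 0.164), and its HP libraries lay between those of HE1, but it was called lower without HE1 replicate 1 (adjusted p = 0.00324). Without HE1 replicate 2 only Dkk1 was still called, without HP replicate 1 only 2 genes were, and without HP replicate 2 Wnt5a was not (adjusted p = 0.118).

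Across the 5 stages the order of the mean levels was therefore not the same for all genes, and many neighbors in it did not differ beyond their spread. For Wnt3 the order was HB, HE1, ES, HE2 and HP, and only HB differed from its neighbor. For Axin2 it was HB, HE1, ES, HP and HE2, again with only the first step called. For Wnt5a (HB, HE1, HE2, HP, ES) and Dkk1 (the same order) each step but that from HE2 to HP was called, and both ended above ES, at 4.46 and 2.63 times the ES level in HP. For Dkk1 the call of HP against ES was lost without ES replicate 1 (adjusted p = 0.0986), without HP replicate 2 (adjusted p = 0.0624) and under limma-voom (adjusted p = 0.0638). For Wnt5b (HB, ES, HP, HE1, HE2) and Sp5 (HB, ES, HE1, HP, HE2) ES came second, and both ended below ES, with Sp5 14.9-fold and Wnt5b 2.87-fold lower in HP than in ES. For Sp8 (HB, ES, HE1, HP, HE2) only the first step was called. For Lef1 (HB, HE1, HE2, HP, ES) no single step was called, although HP was lower than HB (adjusted p = 0.00128). For Wnt2 (HB, HP, HE2, HE1, ES) only the step down to ES was called, and for Wnt3a no step was.

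Genes with the most similar profile were sought by Pearson's r of log2 CPM over the 10 libraries, which come in pairs of 1 stage and share the high HB level, so r is a description only. Wnt3 was most like Eomes (r = 0.990), a T-box factor of the primitive streak, and Sp5 most like Cfc1 (r = 0.992), an EGF-CFC coreceptor of Nodal, with Fgf8 (r = 0.989) also among its first 3. Wnt5a was most like Msx2 (r = 0.993), a homeobox factor, and Wnt5b most like Foxh1 (r = 0.990), a factor of Nodal signaling. Axin2 (r = 0.990) and Sp8 (r = 0.990) shared Ackr3, a chemokine receptor, as their first gene. Dkk1 was most like Vax1 (r = 0.993), Wnt2 most like Zfhx4 (r = 0.982) and Lef1 most like AC166821.1 (r = 0.984), with Boc and then Cyp26a1, which encodes an enzyme that degrades retinoic acid, next. Wnt3a was most like 4833417C18Rik (r = 0.970), over values near the floor. The number of genes with r over 0.95 was between 5 for Wnt3a and 115 for Sp5.

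The rest of the pathway was followed in 83 other genes grouped by role, of which 79 passed the filter. From ES to HB, 19 of them were called higher and 22 lower, where 11.5% and 17.3% of all tested genes were. Of the 12 other known targets 8 were called higher and 4 were not called, with a median log2 fold change of 2.47 against 0 for all tested genes. Msx1 rose by 6.19 ± 0.38 (adjusted p = 1.53e-06) and Msx2 by 5.43 ± 0.43 (adjusted p = 7.29e-06). Brachyury (gene symbol T), the mesoderm factor, is named in addition to these, outside the naming rule, and went from 4.89 to 135 CPM on average (4.80 ± 0.38, adjusted p = 8.19e-06). The other ligands moved mostly the opposite way to Wnt3 and Wnt5a, with 7 of the 12 tested called lower and 3 higher and a median of -2.32. Wnt7b fell from 13.8 and 13.4 CPM to 3 counts in each HB library (adjusted p = 0.000268), and Wnt7a from 1.95 and 2.29 CPM to 1 and 0 counts (adjusted p = 0.0017). Wnt2b (4.76 ± 0.44, adjusted p = 1.96e-05) and Wnt9b (3.43 ± 0.70, adjusted p = 0.00296) rose. Of the neighboring pairs, Wnt3 and Wnt9b both rose, while Wnt9a fell (-3.32 ± 0.52, adjusted p = 0.000623) next to Wnt3a, which was not called.

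Among the genes that carry the ligands out of the cell, Wls, whose protein escorts WNT proteins to the surface, rose from 36.5 to 197 CPM on average (2.43 ± 0.14, adjusted p = 1.24e-06), while Porcn, the enzyme that attaches their lipid, fell from 18.5 to 3.68 CPM (-2.33 ± 0.41, adjusted p = 0.0013). Of 15 receptors and coreceptors 8 were not called, 3 were called higher, led by Fzd1 (2.82 ± 0.33, adjusted p = 9.41e-05), and 4 lower, led by Fzd5, which went from 214 to 21.5 CPM (-3.32 ± 0.17, adjusted p = 7.9e-07). Rspo3, a secreted enhancer of WNT signaling, was at 0.514 and 0.831 CPM in ES and at 99.7 and 122 CPM in HB (7.41 ± 0.35, adjusted p = 4.86e-07). Lgr5, an R-spondin receptor, was at 0.195 and 0.258 CPM in ES and at 22.8 and 28.0 CPM in HB (6.81 ± 0.49, adjusted p = 4.04e-06). Of the 9 genes of this group, 2 rose and 3 fell, among them Lgr6 (-5.41 ± 0.82, adjusted p = 0.000473).

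Of 11 tested genes in the list of secreted antagonists, 6 were called lower and 2 higher, with a median of -2.06, unlike Dkk1. Frzb rose by 6.63 ± 0.61 (adjusted p = 2.03e-05), and Cer1, which had 0 counts in both ES libraries, reached 2.61 and 3.04 CPM in HB. Notum, an enzyme that removes the lipid of WNT proteins, fell from 29.2 to 1.86 CPM (-3.97 ± 0.67, adjusted p = 0.000925), as did Kremen2, a membrane receptor for DKK proteins that is on the list as well (-4.03 ± 0.74, adjusted p = 0.00154). By contrast, of the 11 cytoplasmic relay and destruction complex genes only Apc2 was called, as lower. Of the 7 TCF factors and coactivators, 0 were called by edgeR, limma-voom or DESeq2, and at an unadjusted p under 0.05 the count was 6, where 48.2% of all tested genes were under it.

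**Figure D4:**
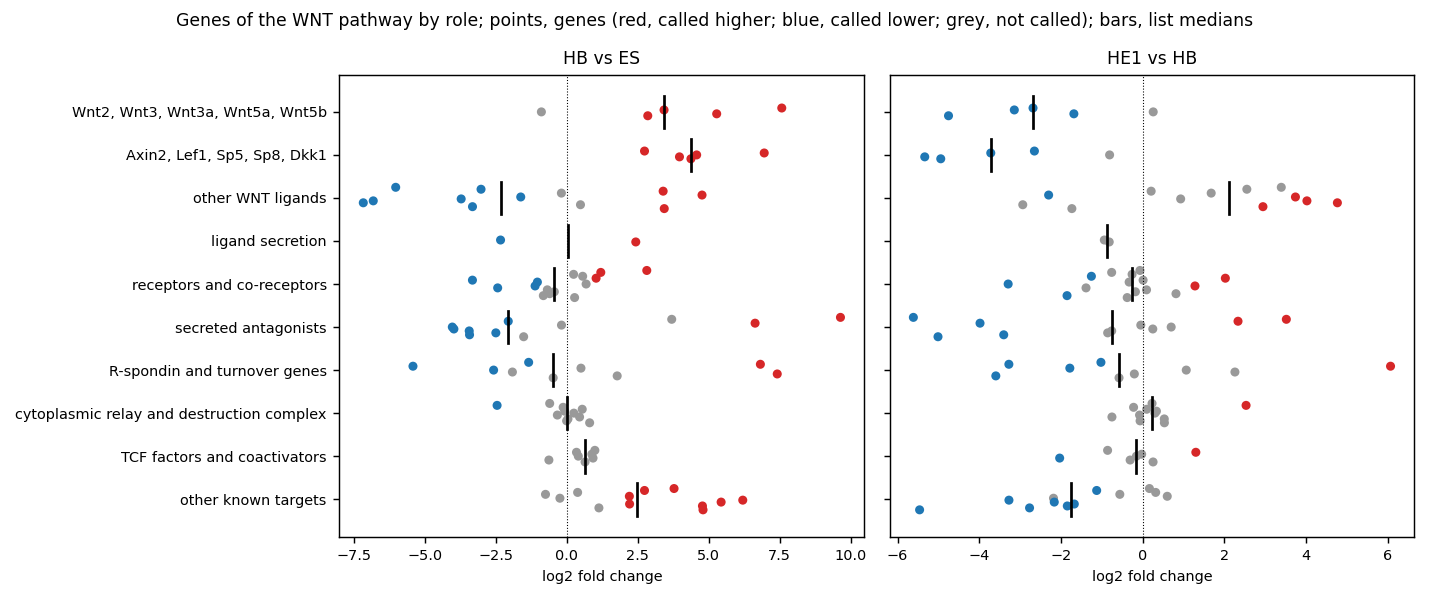
Log2 fold change of each tested gene of the WNT pathway, by role, from ES to HB and from HB to HE1; red points are called higher, blue points lower, grey points not called, and bars are medians of the lists. The top 2 lists and the other known targets lie mostly to the right in HB vs ES and to the left in HE1 vs HB, and the other ligands the other way around.

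From HB to HE1, 11 of the 79 other pathway genes were called higher and 20 lower, where 12.7% and 8.19% of all tested genes were. Of the 12 other known targets 7 were called lower and 5 were not called, with a median of -1.76. Brachyury fell from 135 to 3.03 CPM (-5.46 ± 0.40, adjusted p = 1.41e-05) and Msx1 from 122 to 12.6 CPM (-3.27 ± 0.32, adjusted p = 7.08e-05). The other ligands had a median of 2.11, with 4 of 12 called higher. Wnt4, the ligand that led by level from here on, went from 2.18 and 2.31 CPM to 19.8 and 40.2 CPM (3.74 ± 0.37, adjusted p = 7.75e-05). Wnt7b was at 0.631 and 4.45 CPM in the HE1 libraries (4.76 ± 0.98, adjusted p = 0.00479), again higher in replicate 2. Wnt2b was called lower (-2.30 ± 0.38, adjusted p = 0.00153), as the 1 ligand of this list by edgeR, where limma-voom called 3 and DESeq2 2. Of the 79 other pathway genes as a whole, the number called higher was 6 without HB replicate 2.

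Of the 15 receptors and coreceptors 2 were called higher and 3 lower. Fzd7 fell from 435 to 44.4 CPM (-3.29 ± 0.18, adjusted p = 3.88e-06) and Ror2, a receptor for WNT5A, by 1.85 ± 0.42 on the log2 scale (adjusted p = 0.00804), while Fzd4, known from vessels, rose from 20.2 to 82.2 CPM (2.02 ± 0.26, adjusted p = 0.00032). Tcf7, a TCF factor, fell from 116 to 28.3 CPM (-2.03 ± 0.18, adjusted p = 3.38e-05), while Lef1 was not called, and the coactivator Bcl9l rose (1.30 ± 0.17, adjusted p = 0.000339). Lgr5 fell (-3.28 ± 0.39, adjusted p = 0.000213), whereas Rspo3, at 91.3 and 101 CPM, was not called. Among the antagonists Dkk2 (3.51 ± 1.10, adjusted p = 0.0325) and Dkk3 (2.33 ± 0.45, adjusted p = 0.00331) rose, the former to 0.631 and 3.56 CPM. Sfrp5 (adjusted p = 0.006), at 0 and 2 counts in HE1, and Cer1 (adjusted p = 0.00299), at 0 and 3 counts, fell.

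From HE1 to HE2, 12 of the 79 other pathway genes were called lower and 2 higher, where 5.39% and 3.26% of all tested genes were. Tcf7l1, a TCF factor known as a repressor, fell from 39.4 to 9.46 CPM (-2.06 ± 0.26, adjusted p = 0.00185), Apcdd1 from 117 to 27.0 CPM (-2.11 ± 0.42, adjusted p = 0.015) and Rspo3 from 96.3 to 36.7 CPM (-1.39 ± 0.25, adjusted p = 0.0108). Rnf43, which encodes a ligase that removes Frizzled receptors from the surface, rose from 0.744 to 2.68 CPM (1.84 ± 0.39, adjusted p = 0.0181). The number called lower was 4 without HE1 replicate 2, 24 without HE1 replicate 1, 23 without HE2 replicate 1 and 3 without HE2 replicate 2. From HE2 to HP 0 were called by edgeR, 1 by limma-voom and 3 by DESeq2, and 13 had an unadjusted p under 0.05, as 7.89% of all tested genes did. From HE1 to HP, 23 were called lower and 2, Rnf43 and Rspo4, higher, where 11.2% and 5.35% of all tested genes were. Of the 12 other known targets 8 were called lower and 4 were not called, Myc with a positive difference (0.70, adjusted p = 0.062) among them, and the falls were led by Apcdd1 (-3.50 ± 0.45, adjusted p = 0.000629) and Cdx2 (-3.18 ± 0.77, adjusted p = 0.0135). Without HP replicate 1 this number of pathway genes was 11, and without HE1 replicate 2 or HP replicate 2 it was 14.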

How the data were processed

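The submitters' notes give HISAT2 2.2.1 for alignment to mm10 and featureCounts for counting, on Ensembl 102 exons and with strand, per the file headers. The deposited counts are raw read pairs per gene and were not normalized by the authors, and a pair that overlaps several genes counts on each. The authors also deposited a matrix with 1 score per stage for 15686 genes, a normalized CPM averaged over the libraries, which was used only as an alternative for stage means.

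Counts were analyzed with edgeR (v4.0.16). After filterByExpr on stage, 22596 genes remained, with TMM scaling. The quasi-likelihood model, whose only term was stage, was fitted to all 10 libraries (5 residual degrees of freedom) and was tested on simulated data. Contrasts were adjusted by the Benjamini-Hochberg method over all tested genes and called at an adjusted p under 0.05 and at least 2-fold. CPM are counts scaled to the TMM-adjusted library size by the cpm function of edgeR, RPKM are CPM per kilobase of exon, and log2 CPM for correlations used a prior count of 2. The floor is 3 counts, or 0.0510 to 0.120 CPM before TMM scaling, which covers counting error only.

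Alternatives were limma-voom (v3.58.1), DESeq2 (v1.42.0), no filter, library sizes as total counts without TMM, only the 4 libraries compared, a replicate block, library sizes without the 20 top genes, a 4-fold threshold, and leaving out each library. The 10 genes and the pathway and marker lists were chosen with earlier results of these data known. Named pathway genes are at most 2 called higher and 2 called lower per list and comparison, by fold, with a mean of at least 1 CPM in 1 of the 2 stages, and for similar profiles up to 3 genes per member. Brachyury, Wnt9a as the neighbor of Wnt3a, and some genes that were not called, such as Rspo3 and Myc, were named outside this rule. Promoter sequences are from RefSeq (GRCm38.p6). Exons of Wnt5a, Lef1 and Axin2 overlap those of antisense genes with 0 to 58 counts, which strand-specific counting separates. Wnt5b overlaps the antisense gene Fbxl14 (1375 to 3981 counts) and Lef1 the same-strand gene Gm42449 (3 to 151 counts), with no shared exon bases in either case. No RefSeq promoter of Wnt5a was used here.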

Additional observations from a re-analysis of the deposited data

How the results depend on the processing

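Of 450 counts recomputed under 18 alternative settings for each result, 398 stayed within 1.5 times the value given, and the cause of the other 52 was not tested beyond what each setting changes. The 398 include counts that were 0 and stayed 0, such as those of the 10 genes called lower in HB than in ES. The number of the 10 genes called higher in HB than in ES was 9 under each setting, and the number called lower in HE1 than in HB was 6 to 8. The other pathway genes called between ES and HB were 17 to 23 higher and 16 to 23 lower. The steps called in the order of levels, 15 in all, were 9 at a 4-fold threshold and 12 to 17 with 1 library left out.

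From HE1 to HE2, the 10 genes gave 5 lower with no filter on low counts, 0 with only the 4 libraries compared and 1 at 4-fold. Wnt2 was the 1 gene called higher under DESeq2 and with no filter. The other pathway genes gave 20 lower under DESeq2, 23 with no filter, 7 with 4 libraries and 6 at 4-fold, and 0 higher with 4 libraries and 1 at 4-fold. From HE2 to HP, 1 of the 10 genes, Lef1, was called lower with no filter, and of the other pathway genes 1 was under limma-voom, 3 under DESeq2, 4 with no filter and 1 with 4 libraries. From HE1 to HP, Wnt2 was the 1 gene called higher under limma-voom, DESeq2, no filter, 4 libraries and library sizes without the top 20 genes. At 4-fold the counts lower from HE1 to HP were 2 of the 10 genes and 14 other pathway genes, those from HB to HE1 13 other pathway genes, and those from ES to HP 2 of the 10 genes lower and 4 other pathway genes higher.

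With 1 library left out, the remaining library of its stage is assumed to vary like the others. The 10 genes then gave 0 to 6 lower and 0 to 1 higher from HE1 to HE2, 0 to 1 lower from HE2 to HP, 1 to 7 lower and 0 to 1 higher from HE1 to HP, and 2 to 4 lower from ES to HP. The other pathway genes gave 6 to 13 higher from HB to HE1, 3 to 24 lower and 0 to 3 higher from HE1 to HE2, 0 to 5 lower from HE2 to HP and 11 to 30 lower from HE1 to HP.

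No called change of the 10 genes turned its sign in the refits, which for other pathway genes were summarized as counts only. Among changes of the 10 genes that were not called, the log2 fold change turned under limma-voom for Wnt3a from HB to HE1 (-1.13), Wnt5b from HE1 to HE2 (0.0182) and Wnt5a from HE2 to HP (0.0750, and 0.0374 with total counts). With 1 library left out, it spanned -0.0265 to 0.53 for Wnt3, -7.88 to 0.31 for Wnt3a and -0.58 to 0.53 for Axin2 from ES to HE1, -6.98 to 1.58 for Wnt3a from HB to HE1, and -7.23 to 3.83 for Wnt3a and -0.43 to 0.56 for Wnt5b from HE1 to HE2. From HE2 to HP it spanned -1.06 to 0.32 for Wnt3, -0.43 to 0.60 for Wnt5a, -1.97 to 0.57 for Lef1, -0.28 to 1.91 for Sp5, -0.28 to 2.18 for Sp8 and -0.45 to 0.25 for Dkk1. From HE1 to HP it spanned -0.0072 to 0.99 for Wnt5b, -1.0 to 0.10 for Axin2 and -1.48 to 0.81 for Sp8.

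The replicate numbers gave no common pairing, since the deviations of same-numbered libraries correlated at -0.316 to 0.213 over 10 pairs of stages. The correlations had both signs, with 0.213 for HB and HE2 and -0.316 for HB and HP. A factor shared by libraries of different numbers was not tested. With a replicate block the 10 genes gave 9 higher from ES to HB, 8 lower from HB to HE1, 2 lower from HE1 to HE2 and 5 lower from HE1 to HP, and the other pathway genes 20 higher and 20 lower, 9 and 20, 2 and 9, and 2 and 19 in these comparisons. The authors' matrix moved 15 of 50 stage means by over 1 SD. It lay above the means by a median of 0.101 on the log2 scale, with a range of -1.62 (Wnt3a in HE1) to 0.156. The matrix gives 0.0146 for Wnt3a in HP, where both libraries had 0 counts, so it is not a plain mean of these CPM. With 2 libraries an SD can be very small, as for Wnt5b in HB (0.00554 CPM), so the 15 also depend on that. At the depth of these libraries, Wnt3a after HB and Sp5 and Sp8 in HE2 and HP rest on few counts.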

Other observations

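In most of the 10 genes HP cells differed from ES cells. Of the 10 genes, 3 were called higher in HP than in ES (Wnt2, Wnt5a and Dkk1), where 16.7% of all tested genes were, and 4 lower (Wnt3, Wnt3a, Wnt5b and Sp5), where 21.9% were. Without HP replicate 1, Wnt3 (adjusted p = 0.0919 by edgeR) and Wnt3a (adjusted p = 0.0821) were not called, and without HP replicate 2, Wnt3a (adjusted p = 0.0639) and Dkk1 (adjusted p = 0.0624) were not. Of the 79 other pathway genes tested, 15 were called higher and 30 lower. Between these stages the summed pluripotency markers went from 1598 and 1533 CPM to 5.56 and 1.08 CPM, the cardiac and smooth muscle markers from 90.5 and 99.1 CPM to 751 and 361 CPM and the fibroblast and mesenchyme markers from 58.7 and 64.9 CPM to 714 and 376 CPM, and their part was not tested. This comparison shares its ES and HP libraries with those given above.

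Secreted antagonists were mostly lower in HP, with 6 of 11 called lower, 1 higher and a median log2 fold change of -3.61, against -0.01 for all tested genes. Sfrp1, which encodes a secreted protein related to Frizzled receptors, was at 119 and 121 CPM in ES and at 1.60 and 1.40 CPM in HP (-6.32 ± 0.41, adjusted p = 1.2e-06 by edgeR). Sfrp5, of the same family, went from 3.74 and 3.64 CPM to 0 and 4 counts. Of the 15 receptors and coreceptors 7 were called lower, 2 higher and 6 were not called. Ror2 went from 25.2 to 1.25 CPM on average (-4.31 ± 0.47, adjusted p = 3.29e-05) and Fzd9 from 7.49 to 0.421 CPM (-4.15 ± 0.68, adjusted p = 0.000499), while Fzd1 (1.51 ± 0.32, adjusted p = 0.00269) and Fzd4 (1.14 ± 0.26, adjusted p = 0.0036) rose. Of the 9 R-spondin and receptor turnover genes 4 rose and 4 fell. Rspo3 was at 0.514 and 0.831 CPM in ES and at 21.0 and 27.8 CPM in HP (5.22 ± 0.33, adjusted p = 9.87e-07), and Lgr5 at 0.195 and 0.258 CPM and at 2.23 and 4.70 CPM (3.94 ± 0.46, adjusted p = 5.43e-05). Both libraries of HP lay above both of ES in each. The 11 cytoplasmic relay and destruction complex genes gave 0 calls by edgeR and limma-voom and 1 by DESeq2, with 4 at an unadjusted p under 0.05, where 57% of all tested genes were. Of the 12 other known targets 3 were called higher and 4 lower. Msx2 (1.88 ± 0.39, adjusted p = 0.00222) and Nkd1 (1.52 ± 0.33, adjusted p = 0.00294) were among the first, and Nkd2 (-3.44 ± 0.54, adjusted p = 0.000404) and brachyury (gene symbol T, -2.94 ± 0.42, adjusted p = 0.000213) among the second.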
